A study of Zea mays with 322 samples.

Results

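MIR164e is a microRNA gene on the short arm of chromosome 1 of maize, and it is 1 of the 64 MIRNA loci that were counted in the leaf small RNA libraries of the series. It was taken as the locus listed as Cluster_10766 and was followed through all 81 groups of plants. Of 322 libraries, each from 1 plant, 318 were used. The groups fall into distal aneuploids in a diploid background (monosomies, 1D; trisomies, 3D; tetrasomies, 4D; diploid controls, 2D), disomies (h2D) against haploids (h1D), trisomies and tetrasomies of a duplication around the centromere of chromosome 4 (Dp4), haploids, triploids and tetraploids (1X, 3X, 4X) against diploids, and W22 plants with 1 B chromosome (1B) or with none (0B).

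MIR164 genes produce a small RNA that guides the cleavage of mRNAs of NAC transcription factors. In Arabidopsis these targets include the CUP-SHAPED COTYLEDON genes, which keep organ boundaries apart, and NAC genes that act in lateral root growth and leaf senescence. A gene carried on a varied segment is in cis to the change in dosage, and a gene elsewhere in the genome is in trans. MIR164e lies in cis for 1S only. In 1S plants its own copies vary together with the rest of the segment, and their effects cannot be told apart. In the lines of other segments its own copies do not vary, and in the ploidy series they vary with the whole genome.

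The 21-nt sequence that the study lists for MIR164e is shown as listed, with bases 2 to 8 in capitals. It was not compared with a reference miR164 sequence.
MIR164e: gUGGUCGUucauguguccgcc
The values below count reads over the whole locus and not reads of this sequence alone. From which arm of the hairpin it comes, and whether it is the RNA that guides cleavage of NAC mRNAs, was not tested. The locus spans 180 bases of the W22v2 genome at chr1:47744884-47745063, with no strand given. The W22 annotation lists no gene at that position, and the name MIR164e is the one the study's locus list gives. It was the only locus of the 64 with a MIR164 name, and no other locus shared its sequence or its bases 2 to 8. RefSeq lists 8 MIR164 genes in the B73 genome, and the other members were not analysed here.

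The segment varied in 1S plants is the distal part of the arm moved to a B chromosome in translocation TB-1Sb, and some aneuploids carry B chromosome parts that their controls lack. Monosomies and trisomies were compared with diploids that also serve as the control of the 3S and 5L lines, and disomies were compared with haploids of their own. All plants were 45-day greenhouse plants and leaf tissue was used. The labels name each plant but not its family, so the p-values measure the spread between plants. In leaf tissue, fewer cells that make a small RNA and less of it in each cell cannot be told apart.

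MIR164e was a locus of low abundance. Values are given in RPM, reads scaled to the mapped reads of each library. Over the 318 libraries its level ran from 0 to 59.8 RPM with a median of 3.68, which placed it 27th of the 64 loci by median. The median library held 7 reads of it, 93 libraries held 3 or fewer and 7 held none. A count of 0 allows a level of up to 3 reads, which was 0.771 to 4.47 RPM depending on the depth of the library (670906 to 3892832 mapped reads). These bounds and the intervals given below for reads cover counting error only.

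The level of MIR164e followed the number of 1S copies in the diploid background. The 4 monosomic plants had 3.04, 1.48, 3.32 and 2.10 RPM, from 3 or 4 reads each. The diploid controls had 12.6, 3.07, 5.59 and 4.43 RPM, from 5 to 20 reads. The trisomic plants had 19.4, 14.9, 19.1 and 13.7 RPM, from 18 to 28 reads. All trisomic plants were above all diploids and monosomies, while the highest monosomic plant was just above the lowest diploid, so that these groups overlapped. The diploid plant at 12.6 RPM stood close to the trisomies.

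**Figure D1:**
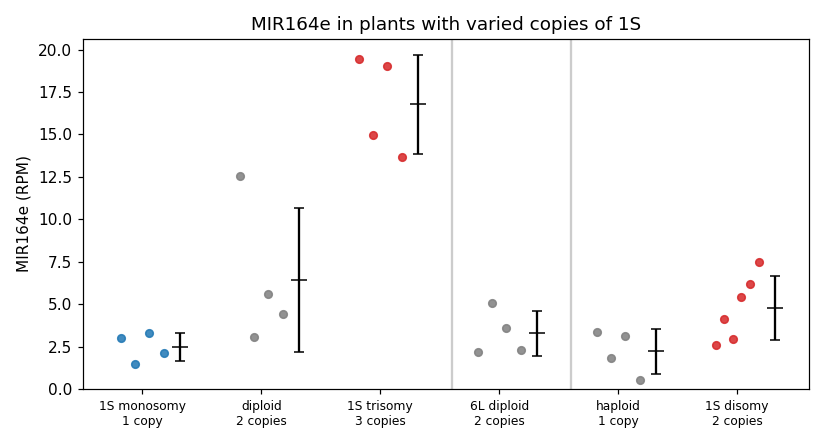
MIR164e in RPM for each plant (points) with 1 to 3 copies of 1S and for the 6L diploids used as another control, and the mean ± SD of each group (bar to the right of the points). The trisomic plants sit between 13.7 and 19.4 RPM, above all plants of the other groups, and the disomies and haploids on the right overlap.

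The reads summed over the 4 monosomies gave 2.34 RPM, with an exact (Clopper-Pearson) 95% binomial interval of 1.28 to 3.93 RPM. The same sum was 6.37 RPM (4.55 to 8.68) in the diploids and 16.7 RPM (13.4 to 20.4) in the trisomies. These 3 intervals did not overlap, but they leave out the spread between plants. The group means were 2.48 ± 0.846 RPM (SD, n = 4), 6.42 ± 4.23 RPM (SD, n = 4) and 16.8 ± 2.90 RPM (SD, n = 4).

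Differential expression was tested with edgeR on raw counts over all loci with a mean of at least 0.5 RPM, and a call is a false discovery rate (FDR) under 0.05. The exact permutation test used below took MIR164e alone, so a call by it is an unadjusted p under 0.05. MIR164e fell in 1S monosomies relative to diploids, with a log2 fold change of -1.54 ± 0.56 (SE; 95% interval -2.75 to -0.34) and an edgeR FDR of 0.0367. In that comparison 44.7% of the 38 loci tested were called, 13 of them down and 4 up, and the median log2 change of all tested loci was -0.29. The plants of the 2 groups did not overlap for 39.5% of the loci. In 1S trisomies its log2 fold change was 1.11 ± 0.40 (interval 0.28 to 1.94) with an edgeR FDR of 0.0687, which missed the threshold. Only 9.30% of 43 loci were called in the 1S trisomies, and MIR164e had the fourth highest log2 change of the 43. Its plants did not overlap with the diploids, which held for 20.9% of the loci tested.

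The monosomy call and the missing trisomy call both turned on the diploid plant at 12.6 RPM (replicate 1). Without it, the monosomy change was -0.98 with an edgeR FDR of 0.163, and the trisomy change was 1.69 with an edgeR FDR of 0.00388. The monosomy call was also lost when any 1 of the 4 monosomic plants, or diploid replicate 3, was left out, with log2 changes from -1.55 to -0.87 and edgeR FDRs up to 0.280. With the 6L diploids of the same experiment as the control (2.16, 5.04, 3.61 and 2.32 RPM), the monosomy change was -0.24 with an edgeR FDR of 0.770 and the trisomy change was 1.91 with an edgeR FDR of 0.000403.

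The comparison of 1S trisomies with 1S monosomies does not depend on the diploids. MIR164e was higher in the trisomies by 2.24 ± 0.44 on the log2 scale (interval 1.33 to 3.16), a 4.74-fold difference with an edgeR FDR of 0.000217. An exact two-sided permutation test over the 4 and 4 plants gave p = 0.0286, the smallest it can give. It stayed called when each of the 8 plants was left out in turn, with log2 changes of 2.13 to 2.84. The background was high, since 52.3% of 44 loci were called between these groups, 11 up and 12 down, and 40.9% did not overlap. MIR164e had the sixth highest change of the 44, beside a median of 0.37 over all of them. The percent of mapped reads on MIRNA loci was 2.94 to 4.37 in the monosomies, 3.12 to 3.59 in the diploids and 2.62 to 4.55 in the trisomies, and its part in these values was not tested.

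A level in proportion to gene copies would change by -1 on the log2 scale from 2 copies to 1, by 0.585 from 2 to 3 and by 1.585 from 1 to 3. With the edgeR scaling used above, the intervals of the 3 observed changes hold these values. Over all 12 plants with 1 to 3 copies, the slope of log2 level on log2 copies was 1.45 ± 0.29 (interval 0.84 to 2.05, edgeR FDR 0.000418), where 1 stands for proportion and lies within the interval. A slope past the threshold was found for 45.2% of 42 loci, 8 rising and 11 falling with copies. The slope of MIR164e was 1.37 to 1.69 when each plant was left out in turn.

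In the haploid background the change did not pass the test. The disomies had a lowest value of 2.6 RPM, a median of 4.77 and a highest of 7.46, and the 4 haploids had 3.36, 1.81, 3.15 and 0.544 RPM. The ranges of both groups overlapped, and the haploid at 0.544 RPM rested on 1 read. The mean was 4.79 ± 1.89 RPM (SD, n = 6) against 2.22 ± 1.31 RPM (SD, n = 4). The log2 fold change was 0.60 ± 0.43 (interval -0.31 to 1.5) with an edgeR FDR of 0.333, in a comparison where 31.8% of 44 loci were called. The interval holds both no change and the 1 of proportion. The exact permutation test on log2(RPM + 0.5), which is scaled to all mapped reads, gave a difference of 1.05 with p = 0.0429. Among the 5 disomies of the pool in which the haploids were sequenced, the edgeR change was 0.44 with an FDR of 0.406.

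The choice of scale bears on these values, because the edgeR normalization is taken from the counts of the MIRNA loci while RPM refers to all mapped reads. When library size was taken as all mapped reads, the median change of all tested loci moved by 0.12 in 1S monosomies, 0.26 in 1S trisomies, 0.44 in 1S disomies and 0.56 between trisomies and monosomies. On that scale the MIR164e changes were -1.40, 1.38, 1.03 and 2.78. The trisomy change was then called with an edgeR FDR of 0.0191. The slope on log2 copies was 1.79 on that scale (edgeR FDR 3.1e-05), against 1.45 with the edgeR scaling. There the changes of -1.40, 1.38 and 2.78 were larger in size than the -1, 0.585 and 1.585 of proportion. Whether the slope or these changes differ from proportion on that scale was not tested. The directions were the same on both scales.

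The 1S effect was set against the mean effect of the other lines in a fit over all groups. In monosomies the 1S effect was -1.44 and the mean of the 13 others was -0.12. The difference of -1.31 ± 0.54 (interval -2.38 to -0.24) had an edgeR FDR of 0.0493, where 33.3% of 48 loci passed. In trisomies the 1S effect was 0.99 and the mean of the 14 other distal lines was -0.02. That difference of 1.01 ± 0.42 (interval 0.18 to 1.84) had a p of 0.0177 in edgeR but an FDR of 0.141, where 10.4% of loci passed. In disomies the 1S effect of 0.73 and the mean of 16 others of 0.69 differed by 0.05 ± 0.44 (interval -0.83 to 0.92, edgeR FDR 1.00), where 8.33% of loci passed. The mean of the other disomies had an SE of 0.18 and an unadjusted edgeR p of 0.000198. For the means of the other monosomies and trisomies the edgeR p was 0.454 and 0.923. The disomy mean includes 4L, and several of its lines share haploid controls. The monosomy difference was -0.78 with an edgeR FDR of 0.330 without diploid replicate 1. It also missed the threshold without monosomic replicate 1, 2 or 4 (-1.25, -1.17 and -1.23). The trisomy difference passed without diploid replicate 1 (1.55, edgeR FDR 0.0170) or trisomic replicate 4 (1.35, edgeR FDR 0.0197). On the scale of all mapped reads it was 1.49 with an edgeR FDR of 0.00327.

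**Figure D2:**
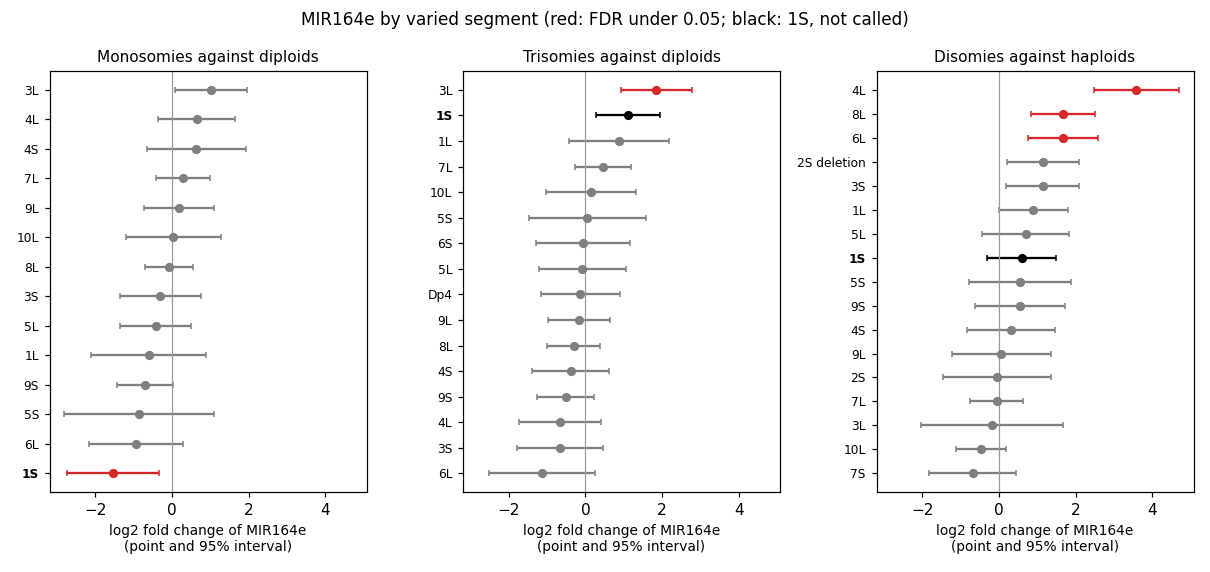
Log2 fold change of MIR164e (point) with its 95% interval for each varied segment in monosomies, trisomies and disomies, from 1 edgeR fit per comparison. The 1S monosomy has the lowest value among monosomies (-1.54), 3L (1.85) and 1S (1.11) are highest among trisomies, and 4L (3.59) is highest among disomies.

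The segment of 1S carries 6 other MIRNA loci, which allow the values of MIR164e to be read beside neighbours of the same copy number. They are MIR171e, whose family targets GRAS transcription factors, MIR166g, whose family targets HD-ZIP III factors of leaf polarity, and 4 loci with no miRNA name. Cluster_10611, the nearest to MIR164e, was below the abundance filter in all 1S comparisons.
MIR171e: uGAUUGAGccgugccaauauc
MIR166g: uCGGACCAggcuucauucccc
Cluster_15779: uUGGGAGCcacaaaacugaag
These 3 sequences, with bases 2 to 8 in capitals, belong to the other 1S loci that were tested in every 1S comparison. None shares bases 2 to 8 of MIR164e.

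MIR171e and Cluster_15779 moved in the direction of MIR164e. MIR171e fell in monosomies (log2 change -1.11 ± 0.38, edgeR FDR 0.0272), had 0.69 ± 0.25 in trisomies (edgeR FDR 0.0687) and rose in disomies (0.53 ± 0.16, edgeR FDR 0.0158). Cluster_15779 was called in all 3, with log2 changes of -1.87 ± 0.31, 0.91 ± 0.21 and 1.41 ± 0.17. Cluster_4527 rose in disomies (1.82 ± 0.53, edgeR FDR 0.0145), had 0.31 ± 0.97 in trisomies and was below the filter in monosomies. Cluster_20009 had 1.00 ± 0.58 in disomies (edgeR FDR 0.215) and was below the filter in the other 2. MIR166g, at a mean of 8242 RPM in the diploids against 6.42 for MIR164e, had 0.05 ± 0.04 in monosomies and -0.19 ± 0.14 in trisomies and fell in disomies (-0.59 ± 0.15). The slopes on log2 copies were 0.90 ± 0.18 for MIR171e, 1.501 ± 0.16 for Cluster_15779 and -0.45 ± 0.11 for MIR166g, beside the 1.45 of MIR164e. MIR164e had the largest SE of these 4 loci in each of these tests and also the fewest reads.

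**Figure D3:**
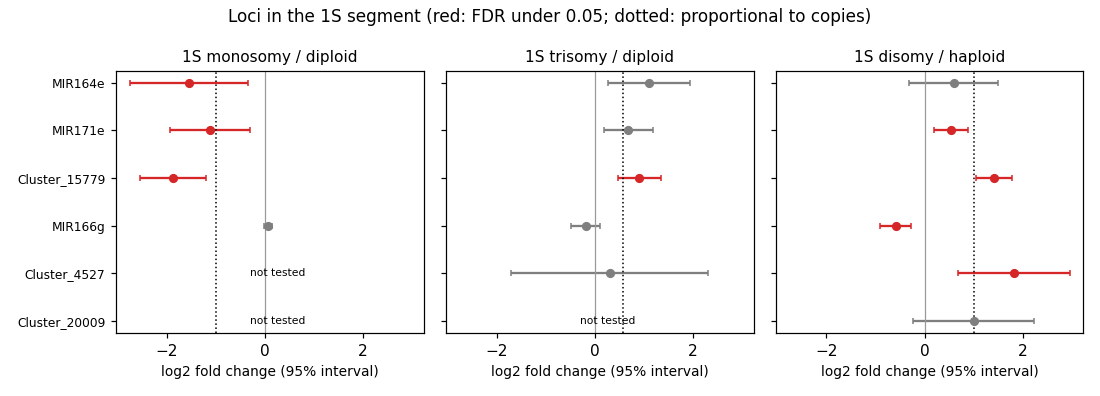
Log2 fold change (point, 95% interval) of loci in the 1S segment in monosomies, trisomies and disomies, with a dotted line where the change would equal the change in copies. MIR164e, MIR171e and Cluster_15779 lie on the same side of 0 as the dotted line in each panel, and MIR166g lies at 0.05, -0.19 and -0.59.

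In all, 8 other loci of auxin response and organ boundaries were counted in the 1S plants. They were chosen because NAC targets of MIR164 act with auxin, and their relation to MIR164e was not tested. They are MIR160g and MIR167a, c and h, whose families target auxin response factors, MIR390b, whose family starts trans-acting RNAs against such factors, MIR393b, whose family targets auxin receptors, and MIR319a and c, whose family targets TCP factors. None lies on 1S. The paper set aside MIR167c and MIR167h for their change with a B chromosome, and some aneuploids carry B chromosome parts. The share of such parts in the calls of MIR167c and MIR167h below was not tested. Of 7 tested in monosomies, MIR167c and MIR319a rose (log2 changes of 1.77 and 1.09) and MIR167h and MIR390b fell (-0.89 and -1.31), beside 44.7% of all loci called. Of 7 in trisomies, MIR393b rose (1.03) and MIR167h fell (-1.25), beside 9.30% of all loci. Of 8 in disomies, MIR167c and MIR319a rose (1.00 and 1.20) and MIR160g and MIR167h fell (-1.14 and -0.88), beside 31.8% of all loci. The median log2 change of the list was -0.15 in monosomies, 0.11 in trisomies and 0.39 in disomies, beside -0.29, 0.13 and 0.04 for all loci tested. The 1S trisomies and monosomies differed in 6 of 7, where 52.3% of all loci were called, and of these MIR393b and MIR390b were higher in trisomies and MIR167c, MIR167h, MIR319a and MIR319c were lower.

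In trans, MIR164e was called in 4 comparisons and was higher in all 4. In the 13 monosomies other than 1S it was not called in any (edgeR FDR under 0.05), and 1 had an unadjusted edgeR p under 0.05. A call was made in 1 by limma, and 1 had an unadjusted p under 0.05 in the exact permutation test. Its log2 changes ran from -0.95 to 1.03 with a median of -0.08, beside 0.06 for all tests, and 12.1% of all tests of loci in these lines were called. In the 15 trisomies other than 1S it was called in 3L only, against 4.64% of all tests, with changes from -1.13 to 1.85 and a median of -0.14. In the 16 disomies other than 1S it was called in 4L, 6L and 8L, which is 3 of 16 against a background of 15.5% of tests, with changes from -0.69 to 3.59. Its median change over these disomies was 0.55, beside -0.00044 for all tests, and 11 of 16 changes were above 0. Several of these disomies share their haploid controls, so their values are not independent.

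Disomies of 4L had the highest level of MIR164e in the series. The 5 plants had 10.9, 47.5, 53.8, 59.8 and 10.6 RPM, from 13 and 20 reads in the plants near 11 RPM and at least 97 in the others, and the 3 haploids had 5.68, 3.19 and 3.40 RPM. Every disomic plant was above every haploid, but 3 plants lay near 50 RPM and the other 2 near 11, with no plant between. The group mean was 36.5 ± 23.9 RPM (SD, n = 5) against 4.09 ± 1.38 RPM (SD, n = 3). The log2 fold change was 3.59 ± 0.56 (interval 2.47 to 4.70), a 12.04-fold rise with an edgeR FDR of 1.04e-07, the largest of the 48 loci tested. In that comparison 18.8% of loci were called, and the same share did not overlap. It stayed called with each of the 8 plants left out in turn, at 3.31 to 3.89. All 8 plants were sequenced in 1 pool. The percent of mapped reads on MIRNA loci in the 3 plants near 50 RPM was 4.52, 4.02 and 1.83, and in the other 2 it was 3.24 and 6.09.

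MIR164e in the other 4L plants did not show such levels. The 4L monosomies had 7.41, 4.08, 5.26 and 1.78 RPM and the trisomies had 1.47, 2.49, 1.77 and 1.88 RPM, against diploids at 5.21, 2.08, 2.08 and 2.84 RPM, of which a pair counted as 1 sample. Neither was called (log2 changes of 0.65 and -0.66, edgeR FDRs of 0.591 and 0.507), where 4.55% of 44 and 0% of 41 loci were called. The difference between the disomy effect and these effects was not tested.

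The haploids of the 4L disomies are also the control of 6L and 3S disomies. The 3 plants disomic for 6L had 12.8, 11.2 and 8.38 RPM, all above the haploids, with a log2 fold change of 1.67 ± 0.42 (interval 0.77 to 2.58) and an edgeR FDR of 0.0157. In 6L disomies 15.7% of 51 loci were called and 33.3% did not overlap. The call was lost when any 1 of the 6L plants was left out, with changes of 1.24 to 1.64, and without haploid replicate 2 (1.38) or 3 (1.19). DESeq2 and limma did not call it either (FDRs of 0.0675 and 0.103). An exact permutation test of 3 against 3 plants cannot go below 0.1, which it gave. The 5 plants disomic for 3S had 8.80, 10.0, 5.13, 5.83 and 11.4 RPM and overlapped with the haploids (log2 change 1.14 ± 0.45, edgeR FDR 0.163, where 2.08% of 48 loci were called).

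Plants disomic for 8L had 10.8, 14.4, 10.3 and 2.65 RPM, and their haploids had 3.32, 4.71, 1.52 and 2.41 RPM. Of the 4 plants, 3 were above all haploids and 1 lay among them. The log2 fold change was 1.68 ± 0.42 (interval 0.84 to 2.51) with an edgeR FDR of 0.00246, 1 of 2 calls among 48 loci (4.17%). The call was lost without disomic replicate 2 (1.37, edgeR FDR 0.0659) or without haploid replicate 1 (1.72, edgeR FDR 0.174). It was also lost with limma (1.40, FDR 0.197) and in the exact permutation test (p = 0.0857). The 1L disomies share these haploids and had 11.2, 9.92, 9.34 and 5.18 RPM, all above them, but with a log2 change of 0.90 ± 0.46 were not called (edgeR FDR 0.0879), in a comparison where 51.1% of 47 loci were called and 55.3% did not overlap. The 1L change was called with limma (1.47, FDR 0.00577), in the exact permutation test (p = 0.0286, the smallest it can give) and without haploid replicate 2 (1.23, edgeR FDR 0.0458). On the scale of all mapped reads it was 1.55 with an edgeR FDR of 0.00215, where the percent of reads on MIRNA loci was 7.5 to 8.47 in these disomies and 4.33 to 5.79 in the haploids. The 5L disomies, with the same haploids, had 3.38, 1.67, 5.86 and 5.75 RPM (log2 change 0.70 ± 0.55, edgeR FDR 0.339, where 13.3% of 45 loci were called). Plants disomic for the deleted form of 2S (2S_deletion) had 4.25, 5.62 and 4.23 RPM, all above their haploids at 1.86, 2.44, 3.08 and 1.52 RPM, with a log2 change of 1.155 ± 0.42 that was not called (edgeR FDR 0.117). None of the 43 loci (0%) was called there, and 20.9% did not overlap.

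Among 3L plants, MIR164e was higher at both 1 and 3 copies than at 2. The diploids had 1.35, 1.41, 1.71 and 1.49 RPM from 2 to 4 reads each, the trisomies had 2.97, 5.57, 6.91 and 6.37 RPM, and the monosomies had 3.07, 4.85, 3.79 and 3.15 RPM. Neither aneuploid group overlapped with the diploids, which in the monosomies held for 22.2% of loci. The trisomy change was 1.85 ± 0.43 (interval 0.92 to 2.78) with an edgeR FDR of 0.0335, the largest rise and the only call among 41 loci (2.44%), and 4.88% of loci did not overlap. The call was also lost on the scale of all mapped reads (1.83), with library sizes that left out MIR166f and MIR166g (1.75) and with no filter on low values (1.63). It was lost when any 1 of 6 of the 8 plants was left out, with edgeR FDRs up to 0.135 and changes of 1.79 to 1.94. The monosomy change was 1.03 ± 0.44 (interval 0.08 to 1.97) and was not called, with an edgeR FDR of 0.244 where 6.67% of 45 loci were called, and limma gave an FDR of 0.00872. Diploid replicate 2 had 1.49% of its reads on MIRNA loci, and the other 3 had 3.83 to 4.69%. In 3L disomies the change was -0.18 ± 0.81 (edgeR FDR 0.908), against haploids at 4.36, 6.91 and 0 RPM.

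**Figure D4:**
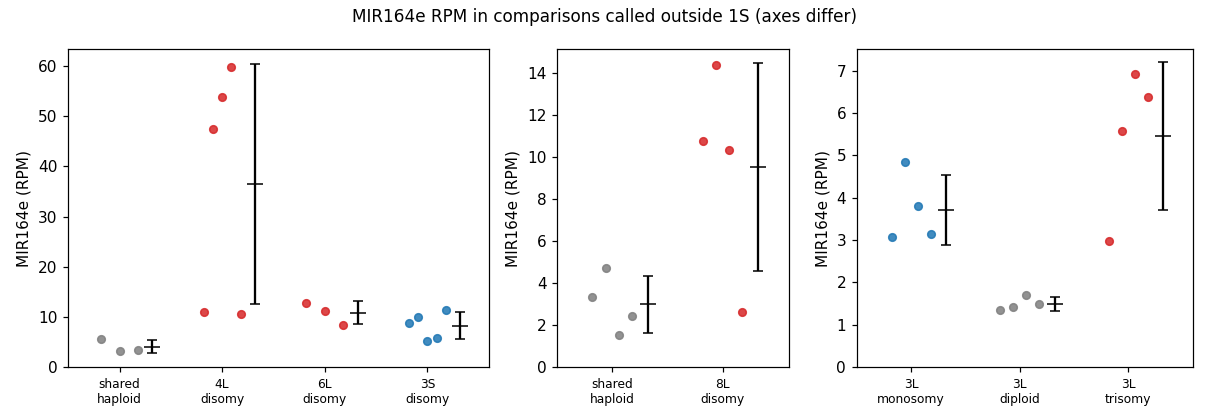
MIR164e in RPM for each plant (points) and the mean ± SD of each group (bar) in comparisons called outside 1S, with 3S disomies and 3L monosomies, which were not called, in blue. The 4L disomies fall into 3 plants at 47.5 to 59.8 RPM and 2 at 10.6 and 10.9, and the scale differs between panels.

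The tetrasomies gave no edgeR call. The log2 changes of 5S, 6S, 10L and Dp4 tetrasomies against diploids were 0.51, -1.28, -0.40 and -0.54, where 6.06% of 165 tests of loci were called. None had an unadjusted p under 0.05 in edgeR, and none was called by limma, DESeq2 or the exact permutation test. Tetrasomies against trisomies gave 0.37, -1.14, -0.29 and -0.36, with 1.76% of tests called. The 6S tetrasomies had 1.10, 1.44, 1.12 and 1.09 RPM from 1 read each, below all 6S trisomies (2.96, 1.85, 3.98 and 2.27 RPM from 2 or 3 reads each), which held for 2.44% of 41 loci. The 6L trisomies had 1.29, 0.687, 1.85 and 0.701 RPM from 1 to 3 reads each, below all 6L diploids, with a log2 change of -1.13 ± 0.70 that was not called (edgeR FDR 0.370), where 11.4% of 44 loci were called and 20.5% did not overlap. The exact permutation test gave p = 0.0286, the smallest it can give, for 6S tetrasomies against trisomies and for 6L trisomies against diploids. Dp4 trisomies had 14.6, 10.6 and 5.51 RPM beside diploids at 7.20, 13.2, 19.3 and 5.82 RPM (log2 change -0.14 ± 0.48).

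Whole-genome dosage and the B chromosome also gave no call. The haploids of the ploidy series had 1.89, 5.71, 3.10 and 2.2 RPM and their diploids 0.859, 2.76, 0.788 and 2.82 RPM, with a log2 change of 0.91 ± 0.65 (edgeR FDR 0.706). The 2 triploids, of Mo17 background, had 7.94 and 9.08 RPM and their diploids 8.37, 5.54 and 8.01 RPM, a change of -0.05 ± 0.30 (edgeR FDR 0.995). The W22 tetraploids had 4.98, 2.18, 9.86 and 3.39 RPM and their diploids 7.41, 0.962, 2.27 and 0.990 RPM, a change of 1.02 ± 0.71 (edgeR FDR 0.493). None of the 123 tests of loci in these 3 comparisons was called, and none of the 3 for MIR164e had an unadjusted p under 0.05 in edgeR or a call in limma or DESeq2. The tetraploid effect exceeded the triploid effect by 1.09 ± 0.84 (edgeR FDR 1.00). With 1 B chromosome the plants had 1.89, 3.57, 0 and 0 RPM, the plants at 0 being counted as 1 sample, and with none they had 2.45, 1.88, 2.01 and 4.26 RPM. The log2 change was -1.06 ± 0.89 (interval -2.82 to 0.71, edgeR FDR 0.842), where 2.33% of 43 loci were called.

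Ordered by mean level, 4L disomies came first (36.5 RPM) and 1S trisomies second (16.8 RPM), followed by the Dp4 diploids (11.4 ± 6.19 RPM, SD, n = 4), which are controls. Each of the 80 pairs of neighbours in the order of 81 groups overlapped in the range of their plants. Controls differed among themselves: the means of the 18 diploid control groups ran from 1.49 to 11.4 RPM and those of the 8 haploid control groups from 1.61 to 8.56 RPM. The 1S diploids, at 6.42 RPM, were above the median of 3.43 RPM of the diploid controls. Control groups of the same experiment also differed, with means of 3.57 and 11.4 RPM for the 1L and Dp4 diploids, and tests were made against a group's own control. Of 309 plants outside the 4L disomies and 1S trisomies, 4 reached the level of the lowest trisomic 1S plant.

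**Figure D5:**
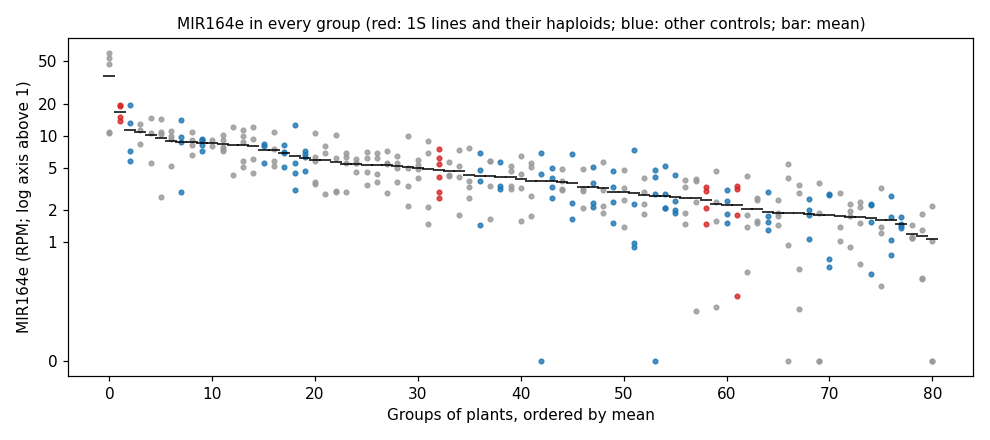
MIR164e in RPM for each plant (points; log axis above 1) and the mean (bar) of each of the 81 groups, ordered by mean. The 1S trisomies are second after the 4L disomies, and the 1S disomies, monosomies and haploids lie at 4.79, 2.48 and 2.22 RPM among the other controls and lines.

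The loci whose group means ran most like those of MIR164e over the 81 groups were MIR167h (Spearman's rho 0.469), MIR167c (0.463) and MIR390b (0.437). MIR167h and MIR167c are the loci that the paper set aside for their change with a B chromosome. These correlations of mean log2(RPM + 1) are weak, share libraries and depth between loci, and stand as a description.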

How the data were processed

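The authors sequenced small RNA of 45-day leaves, used cutadapt 1.16 to trim adaptors, discarded structural RNA and aligned what was left to W22v2 with ShortStack. They deposited raw counts per MIRNA locus, and the deposited RPM values are the same counts relative to each library's mapped reads. Alignment was not repeated, and how reads that match several loci were placed was not tested. Each library is 1 plant. Groups came from the sample labels, and the sequence and position of loci from the study's locus list. The authors also tested raw counts with edgeR and left out loci with a mean RPM under 0.5. The quasi-likelihood test, the TMM scaling and the counting of like plants as 1 sample were chosen here.

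The test was the quasi-likelihood test of edgeR 4.0.16 (R 4.3.3) on TMM-scaled counts, with 1 fit per comparison. Loci whose mean RPM reached 0.5 were tested, and the Benjamini-Hochberg FDR had to be under 0.05. The SE is the log2 change over its test statistic and is approximate. DESeq2 1.42.0, limma 3.58.1 on log2(RPM + 0.5) and other scalings were alternatives, and the scripts were tested on simulated data. Experiment and pool of each plant came from the study's sample list. Mapped reads per library (670906 to 3892832) came from the ratio of counts to RPM. Left out were 3 libraries of lower quality and 1 plant with conflicting dosage labels. In 6 pairs the counts of 2 plants differed by no more than sampling noise (chi-square over loci with a summed count of at least 10, p above 0.05), and each pair was counted as 1 sample. This definition was kept after 2 had been tried, because it matched an earlier processing of these data. The other, at least 10 counts in each plant, joined 10 pairs, 5 of them shared. MIR164e was named in every comparison, the other 1S loci and the list of auxin and boundary loci in 1S comparisons, and the 3 loci most like it by rho. The members, lists and tests were chosen with earlier results of these data known.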

Additional observations from a re-analysis of the deposited data

Results flagged for a closer look

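In the 6S tetrasomies, 1 plant (replicate 2) had 1.44 RPM of MIR164e and the other 3 had 1.09 to 1.12 RPM, so that it stood apart by Dixon's test. All 4 values rest on 1 read each, so they differ only by the depth of the libraries. Replicate 2 had 694097 mapped reads and the other 3 had 894210 to 918424. Of 64 groups of 4 to 10 samples tested this was the only one that stood apart, where chance gives about 1 in 20.

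The effect of 1S monosomy on MIR164e differed from the mean effect of the other monosomies by -1.31 on the log2 scale in a fit over all groups (edgeR FDR 0.0493).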

How the results depend on the processing

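The higher level in 1S trisomies than in monosomies and the slope on copies were called under every alternative run. The 1S monosomy change lost its call with DESeq2 (-1.17), without MIR166f and MIR166g in the library size (-1.05), with limma (-1.08), in the exact permutation test (-1.08, p = 0.0571) and with the 6L diploids (-0.24), and was -1.79 to -0.87 without each plant in turn. The 1S trisomy change was called on all mapped reads (1.38), without MIR166f and MIR166g (1.14), with no filter (1.07), in the exact permutation test (1.48, p = 0.0286, the smallest it can give) and with the 6L diploids (1.91), and was 0.74 to 1.69 without each plant. The 1S disomy change passed in the permutation test alone (1.05, p = 0.0429). The monosomy difference from other lines lost its call without MIR166f and MIR166g (-0.95) and without 3S and 5L (-1.37), with -1.54 to -0.78 without each plant. The trisomy difference was called on all mapped reads (1.49), with 0.78 to 1.55 without each plant, and the disomy difference was -0.36 to 0.22 without each plant and 0.37 on all mapped reads. Calls in other monosomies were 1 by limma, 1 by permutation (unadjusted p under 0.05) and 0 to 1 without each plant. Calls in other trisomies were 0 on all mapped reads, without MIR166f and MIR166g or with no filter, 2 by permutation (unadjusted p under 0.05), and 0 to 1 without each plant. Calls in other disomies were 2 to 4 over the alternatives and also without each plant.

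Outside the 1S and B chromosome comparisons, 51 single comparisons were not called, and 18 of them changed sign under some alternative. None of these was called where its sign changed, and the causes of changes with a setting were not tested. On all mapped reads the log2 change was 0.091 in 8L monosomies, -0.027 in 10L monosomies, 0.00527 in 3L, 0.023 in 7L and -0.040 in 9L disomies and 0.21 in triploids. With limma and the permutation test it was 0.057 in 8L and -0.22 in 10L monosomies, -0.55 in 5S and 0.54 in 6S trisomies, 0.62 in 3L, 0.18 in 7S, 0.010 in 7L and -0.031 in 9L disomies and 0.22 in triploids. With DESeq2 it was -0.34 in 10L monosomies and 0.16 in 5L, 0.00991 in 6S and -0.084 in 10L trisomies. Without MIR166f and MIR166g it was -0.11 in 9L and -0.17 in 10L monosomies, 0.059 in 5L trisomies and 0.00857 in triploids. With no filter it was -0.27 in 10L monosomies and 0.011 in triploids. With the other definition of like plants, chosen after seeing the data, it was 0.0226 in 7L disomies. Without each plant, the change was -0.51 to 0.26 in 10L, -0.73 to 0.19 in 3S, -0.70 to 0.12 in 5L, -2.09 to 0.089 in 5S, -0.21 to 0.067 in 8L and -0.11 to 0.37 in 9L monosomies. It was -0.053 to 0.37 in 10L, -0.67 to 0.26 in 5L, -1.98 to 0.87 in 5S, -0.46 to 0.36 in 6S and -0.51 to 0.23 in Dp4 trisomies. It was -0.18 to 0.16 in 2S, -0.68 to 0.52 in 3L, -0.22 to 0.60 in 4S, -0.16 to 0.060 in 7L, -1.09 to 0.031 in 7S and -0.057 to 0.18 in 9L disomies and -0.17 to 0.035 in triploids. The scale of all mapped reads moved the median of all loci by over 0.1 in 35 of 60 comparisons (-0.62 to 0.64).

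No paired analysis was possible because the labels give no replicate numbers that are shared between groups. The median of 7 reads per library limits every value of MIR164e.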

Other observations

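The 4 libraries left out of the groups held 1.48 RPM (1L diploid), 5.95 RPM (1L trisomy), 0 RPM (Dp4 tetrasomy) and 9.39 RPM (Dp4 plant with conflicting labels) of MIR164e, none above the highest plant of its own diploid control.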
